A study of Rattus norvegicus with 12 samples.

Results

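Hox genes encode homeodomain transcription factors that assign position along the body axis. They lie in the Hoxa, Hoxb, Hoxc and Hoxd clusters, in which genes of low paralogue number act rostrally and genes of high paralogue number act caudally. In the developing spinal cord the Hox code sorts motor neurons into columns and pools, with paralogues 8 to 10 marking thoracic to lumbar levels. The clusters also give rise to noncoding transcripts and contain genes for miRNAs of the miR-10 and miR-196 families.

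The transcripts described here are every entry of the long noncoding RNA (lncRNA) table whose locus name is that of a Hoxa, Hoxb, Hoxc or Hoxd gene. The rule found 8 of 22591 transcripts, 3 named for Hoxb genes, 3 for Hoxc genes, 2 for Hoxd genes and 0 for Hoxa genes. All 8 owe their name to the AceView locus name in the table. Such a name gives the locus and does not make the transcript the messenger RNA of the gene, and 6 of the 8 are marked as unspliced in the name, as are 9369 transcripts (41.5%) of the whole table. The table gives no strand, so reads of a Hox gene and of a transcript on its other strand cannot be told apart.

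The libraries came from lumbosacral spinal cord of Wistar rat fetuses at embryonic day 19. The fetuses either had anorectal malformations (ARM) induced with ETU (ethylenethiourea, a teratogen given during pregnancy) or were normal, with 3 lncRNA libraries and 3 miRNA libraries in each group. Every ARM library was exposed and no exposed library lacked ARM, so the effects of exposure and of malformation cannot be told apart. Whether libraries came from separate animals or litters is not in the labels, so each p-value covers the variation among these libraries, which may be technical. The lncRNA libraries held 3285614 to 3721901 counts in ARM and 3428655 to 3865088 in normal, and the miRNA libraries 11230621 to 13832152 in ARM and 11702113 to 12939364 in normal. The normal columns of the lncRNA table could be matched to the group but not to single samples, and these libraries are numbered in column order.

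Levels are given as CPM (counts scaled by the library total) after TMM scaling, which allows for the composition of each library, and are divided by the listed length in kilobases where transcripts are compared with each other. Tests used the counts themselves, in edgeR's quasi-likelihood fit over 13343 transcripts that passed its expression filter. In that fit 16 transcripts (0.12%) had an adjusted p under 0.05, and no Hox-named transcript was among them. DESeq2 and limma-voom called no Hox-named transcript either, and by edgeR 0 of the 4 tested had an unadjusted p under 0.05. These 4 were Hoxb3, Hoxc4, Hoxb8 and Hoxd9. The other 4 (Hoxd3, Hoxb5, Hoxc9 and Hoxc10) did not pass the filter and are described by their counts.

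The Hox-named transcripts covered a wide range of levels that did not follow paralogue number. The most abundant was Hoxb8, with a median of 503 CPM per kilobase over the 6 libraries, and it ranked 95 by mean among all 22591 transcripts. Hoxd9 (median 168 CPM per kilobase) and Hoxb3 (112 CPM per kilobase) came next, then Hoxc4 (19.6 CPM per kilobase) and Hoxc10 (10.3 CPM per kilobase). Hoxd3 (0.649 CPM per kilobase), Hoxb5 (0.644 CPM per kilobase) and Hoxc9 (0.377 CPM per kilobase) were at the bottom.

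In this order Hoxb8 lay above Hoxd9, Hoxb3 above Hoxc4 and Hoxc10 above Hoxd3 in 6 of 6 libraries, and the ranges of these pairs did not overlap. Hoxd9 also lay above Hoxb3 in 6 of 6 libraries, although their ranges overlapped (122 to 197 and 79.1 to 140 CPM per kilobase). The ranges of Hoxc4 and Hoxc10 overlapped as well, as did those of the lowest 3. By counts, Hoxb8 alone took 54.0% to 62.9% of the Hox-named counts in the ARM libraries and 54.2% to 66.4% in the normal libraries. Together the 8 transcripts held 0.0512% to 0.0569% of all counts in ARM and 0.0392% to 0.0442% in normal.

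**Figure D1:**
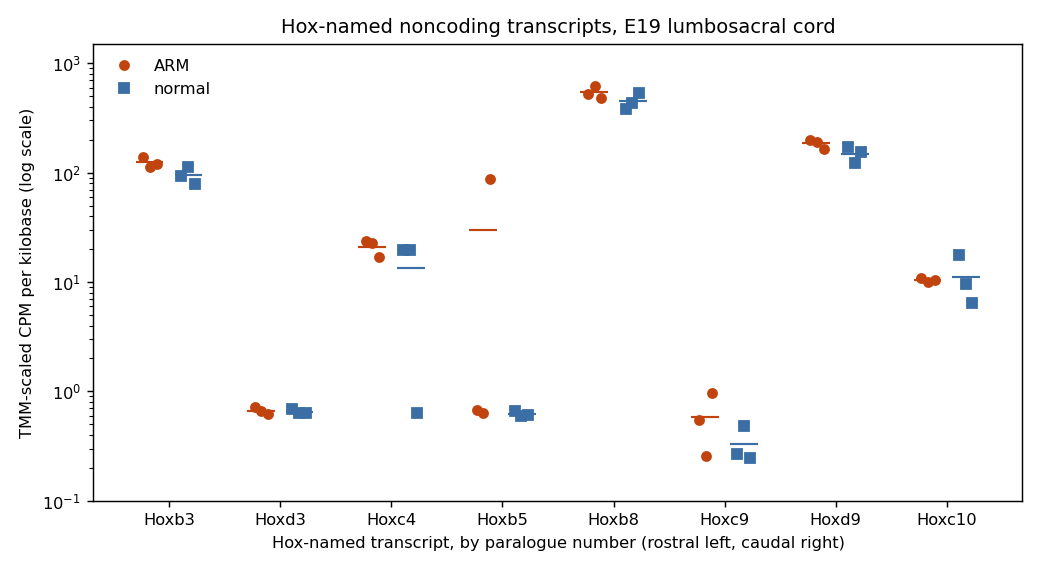
TMM-scaled CPM per kilobase (log scale) of the 8 Hox-named transcripts in each lncRNA library, ordered by paralogue number with rostral paralogues on the left. Circles are the 3 ARM libraries, squares the 3 normal libraries and lines the group means. Hoxb8, Hoxd9 and Hoxb3 stand above the others, Hoxb5 is high in 1 ARM library (87.8 CPM per kilobase) and Hoxc4 is low in 1 normal library (0.639 CPM per kilobase).

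The most rostral paralogue in the set is number 3. The Hoxb3 transcript (NONRATT004800.2, chromosome 10, 84141907 to 84190176, listed length 582 bases) spans a long stretch of the cluster in rat coordinates of a build that the deposited data do not name. Hoxb3 acts in hindbrain and rostral cord patterning. It had 270, 234 and 265 counts in the ARM libraries, against 186, 245 and 172 in the normal libraries. The TMM-scaled levels were 81.3, 65.3 and 69.8 CPM in ARM and 54.4, 65.3 and 46.0 CPM in normal. The groups did not overlap, but the lowest ARM library and the highest normal library were only 65.35 and 65.28 CPM. The log2 fold change (ARM over normal) was 0.38 (SE 0.17, edgeR unadjusted p 0.0627, adjusted p 0.837) and did not pass. The interval of this transcript overlaps 7 other transcripts of the table, the Hoxb5 transcript among them.

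The Hoxd3 transcript (NONRATT018270.2, chromosome 3, 61669230 to 61669650, 421 bases) had exactly 1 count in each of the 6 libraries. The same pattern was found in 408 transcripts of the table, of 697 with 6 counts in all. A count of 0 would allow up to 3 counts in a library, and 1 count lies within that limit of detection. Hoxd3 therefore bears no comparison between the groups. How the counts of 1 in this and other transcripts arose is not in the sources and was not tested.

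Paralogue 4 is represented by the Hoxc4 transcript (NONRATT026351.2, chromosome 7, 144648102 to 144648520, 419 bases). Hoxc4 is a cervical paralogue in the cord. The transcript had 33, 34 and 27 counts in the ARM libraries, against 28, 31 and 1 in the normal libraries. The groups overlapped, and the normal library numbered 3 stood apart from the other 5. The log2 fold change was 0.67 (SE 0.78, edgeR adjusted p 0.923) and was 0.10 (SE 0.25, edgeR adjusted p 0.938) without normal replicate 3. Over the whole table, 17 transcripts had exactly 1 count in 1 library and at least 20 in the other 5, and 75 had at most 1 count in 1 library with at least 20 in the other 5.

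The Hoxb5 transcript (NONRATT004806.2, chromosome 10, 84153732 to 84154175, 444 bases) had 1, 1 and 148 counts in the ARM libraries, against 1, 1 and 1 in the normal libraries. Hoxb5 is a brachial paralogue that also acts in vagal neural crest. The 148 counts stood in ARM replicate 3 alone. Of 22591 transcripts, 4 had at least 100 counts in 1 library and exactly 1 in the other 5, and 46 had at most 1 in the other 5. The Hoxb5 interval lies inside that of the Hoxb3 transcript and that of a transcript with the locus name swermee (NONRATT005934.2), which had 30, 31 and 21 counts in ARM and 20, 25 and 22 in normal. The transcript did not pass the filter, and in the fit with no filter its edgeR adjusted p was 0.844.

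The Hoxb8 transcript (NONRATT004798.2, chromosome 10, 84133306 to 84133869, 564 bases) comes from the locus of a thoracic paralogue that is required for dorsal horn sensory neurons in the mouse. It had 983, 1258 and 1029 counts in the ARM libraries, against 738, 922 and 1116 in the normal libraries. The TMM-scaled levels were 296, 351 and 271 CPM in ARM and 216, 246 and 299 CPM in normal. The highest normal library lay above the lower ARM libraries, so the groups overlapped. The mean was 306 ± 41.1 CPM in ARM and 253 ± 41.9 CPM in normal (SD, n = 3 each). The log2 fold change was 0.27 (SE 0.17, edgeR unadjusted p 0.145, adjusted p 0.865) and did not pass. A change in the number of cells that carry a transcript and a change in its level per cell cannot be told apart in bulk tissue. This holds here and in any result that follows, in either direction.

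Of the 4 Hox-named transcripts tested, Hoxb3 alone had every ARM library above every normal library, by the small gap given above. Of all transcripts tested 7.29% had this and 4.58% the reverse, so it marks nothing particular about Hoxb3.

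The Hoxd9 transcript (NONRATT018267.2, chromosome 3, 61621685 to 61622354, 670 bases) comes from a paralogue group 9 gene, active from thoracic to lumbar levels and in the hindlimb. It had 439, 462 and 420 counts in the ARM libraries, against 391, 306 and 383 in the normal libraries. The mean level was 124 ± 11.7 CPM in ARM and 99.5 ± 16.6 CPM in normal (SD, n = 3 each). The highest normal library (114 CPM) lay above the lowest ARM library (111 CPM). The log2 fold change was 0.32 (SE 0.17, edgeR unadjusted p 0.0975, adjusted p 0.837) and did not pass. The transcript lies wholly inside another, starchee (NONRATT019393.2, 61621139 to 61622599), which had 7, 4 and 3 counts in ARM and 0, 0 and 0 in normal. With normal set to 3 counts over its 3 libraries, the level was 4.76-fold higher in ARM. This takes the few ARM counts as exact, so it is not a lower limit of the fold. The starchee transcript did not pass the filter, had an edgeR adjusted p of 0.844 in the fit with no filter, and was named after its values were seen.

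The other paralogue 9 transcript, Hoxc9 (NONRATT026350.2, chromosome 7, 144607446 to 144608541, 1096 bases), had 2, 1 and 4 counts in ARM and 1, 2 and 1 in normal. Hoxc9 sets the thoracic motor columns. These values are close to the limit of detection and bear no comparison. The most caudal member, Hoxc10 (NONRATT026348.2, chromosome 7, 144578222 to 144582683, listed length 251 bases), had 9, 9 and 10 counts in ARM and 15, 9 and 6 in normal. Hoxc10 is a lumbar paralogue that specifies motor neurons of the lateral motor column. The ARM libraries lay inside the range of the normal libraries, and the mean was 2.62 ± 0.0989 CPM in ARM and 2.80 ± 1.43 CPM in normal (SD, n = 3 each). No transcript of paralogue 11 to 13, the sacral and tail end of the code, carried a Hox name.

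To see what surrounds the Hox-named transcripts, every other transcript within 100 kb was read from the same fit. There were 30, of which 15 lay around the Hoxb members, 11 around the Hoxc members and 4 around the Hoxd members. None passed the threshold by edgeR, DESeq2 or limma-voom, and 8 of the 22 tested had an edgeR unadjusted p under 0.05. Around Hoxb8 and Hoxb3, all 14 transcripts tested, these included, had a log2 fold change above 0, with a median of 0.41 and a range of 0.20 to 0.61. Over all 13343 transcripts 51.5% had one above 0 and the median was 0.01. Of the 14, 7 had an edgeR unadjusted p under 0.05, against 5.98% of all transcripts in either direction and 3.44% with the higher level in ARM, and the smallest adjusted p was 0.832. In 7 of the 14 every ARM library lay above every normal library, against 7.29% of all transcripts tested. All 14 stayed above 0 when any library was left out, but those with an unadjusted p under 0.05 were 2 without ARM replicate 1 and 2 without normal replicate 1. These 14 are not separate observations, since 7 of them overlap one another and all share the same libraries.

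By CPM, the most abundant of the surrounding transcripts were 2 in the Hoxb cluster. NONRATT004804.2 (chromosome 10, 84148534 to 84150239), which carries no locus name and overlaps the Hoxb3 transcript, had 1684, 1715 and 1936 counts in ARM and 1267, 1401 and 1505 in normal. Its log2 fold change was 0.38 (SE 0.10, edgeR adjusted p 0.832). The transcript with the locus name Homeobox.2 (NONRATT004797.2, 84132718 to 84133263) starts just before Hoxb8 and ends 43 bases short of it. It had 1811, 2121 and 1475 counts in ARM, against 863, 1207 and 1630 in normal, and its highest normal library lay above its lowest ARM library. The log2 fold change was 0.59 (SE 0.24, edgeR adjusted p 0.833). Per kilobase, Homeobox.2 averaged 774 CPM over the 6 libraries, against 496 CPM for Hoxb8 and 258 CPM for NONRATT004804.2. The transcripts stanaw (331 CPM per kilobase) and stonaw (276 CPM per kilobase) also lay above NONRATT004804.2 by this measure. The smallest unadjusted p of the cluster, a transcript named after its values were seen, was that of stonaw (NONRATT004801.2, 84142890 to 84143830), with 1162, 983 and 1212 counts in ARM and 650, 880 and 717 in normal (log2 fold change 0.61, SE 0.15, edgeR unadjusted p 0.00432, adjusted p 0.832).

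**Figure D2:**
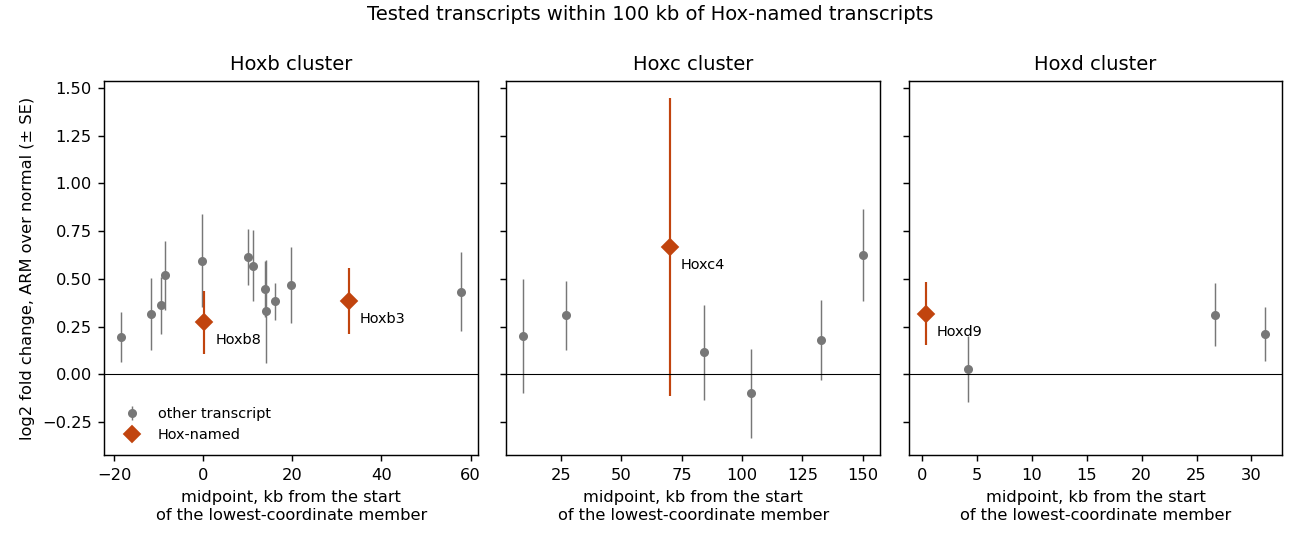
Log2 fold change (ARM over normal, bars ± SE) of the tested transcripts within 100 kb of the Hox-named ones, plotted by the distance of their midpoint from the start of the lowest-coordinate member of the cluster. Diamonds are Hox-named transcripts and circles the others; all 14 Hoxb points lie above 0 with a median of 0.41, and MSTRG.23132.25 of the Hoxc cluster (log2 fold change -0.52, SE 2.40) is not drawn.

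The Hoxc and Hoxd surroundings were more mixed or smaller in number. Around the Hoxc members, 6 of 8 tested transcripts, Hoxc4 included, had a log2 fold change above 0 and the median was 0.19. Without normal replicate 3 the median was 0.10, with 6 of 9 above 0, and without ARM replicate 2 it was 0.25, with 9 of 10 above 0. By CPM the most abundant there was MSTRG.23132.24 (chromosome 7, 144655983 to 144669221, listed length 8128 bases), with 1090, 982 and 1367 counts in ARM and 948, 1511 and 775 in normal (log2 fold change 0.12, SE 0.25, edgeR adjusted p 0.959). Per kilobase it averaged 37.9 CPM over the 6 libraries, and starty (NONRATT026349.2, 319 bases) lay higher, at 199 CPM per kilobase (log2 fold change 0.31, SE 0.18, edgeR adjusted p 0.865). An overlapping form of MSTRG.23132.24, MSTRG.23132.25, named after its values were seen, had 1032, 0 and 0 counts in ARM and 932, 0 and 646 in normal, so libraries of both groups were at 0. Around the Hoxd members all 4 tested transcripts, Hoxd9 included, had a log2 fold change above 0, and the median was 0.26. Of these 4, 3 were above 0 without ARM replicate 1, without ARM replicate 2 and without normal replicate 2, and the median was 0.16 without ARM replicate 3.

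Summing the counts around each set of members gave 2685, 2646 and 2428 CPM in the ARM libraries and 1699, 1908 and 2085 CPM in the normal libraries for Hoxb. Every ARM library lay above every normal library. The log2 fold change was 0.45 (SE 0.11, edgeR unadjusted p 0.00472, adjusted p 0.836), and 0.47 (SE 0.11, edgeR adjusted p 0.837) with the Hox-named transcripts left out. For Hoxd the sums were 420, 390 and 430 CPM in ARM and 365, 346 and 331 CPM in normal (log2 fold change 0.25, SE 0.10, edgeR unadjusted p 0.0434, adjusted p 0.836), and again every ARM library lay above every normal library. For Hoxc they were 820, 455 and 542 CPM in ARM and 693, 548 and 541 CPM in normal (0.03, SE 0.23, edgeR adjusted p 0.992), and the groups overlapped. No sum passed the threshold, and the difference between clusters was not tested. Among single transcripts tested, 7.29% had every ARM library above every normal library and 4.58% the reverse. An edgeR unadjusted p under 0.05 was found for 5.98% of them. No such shares were computed for sums, which pool the counts of several transcripts, so these shares are not a like background for the sums. Each sum includes transcripts that overlap one another, and the sources do not say whether a read was counted more than once.

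**Figure D3:**
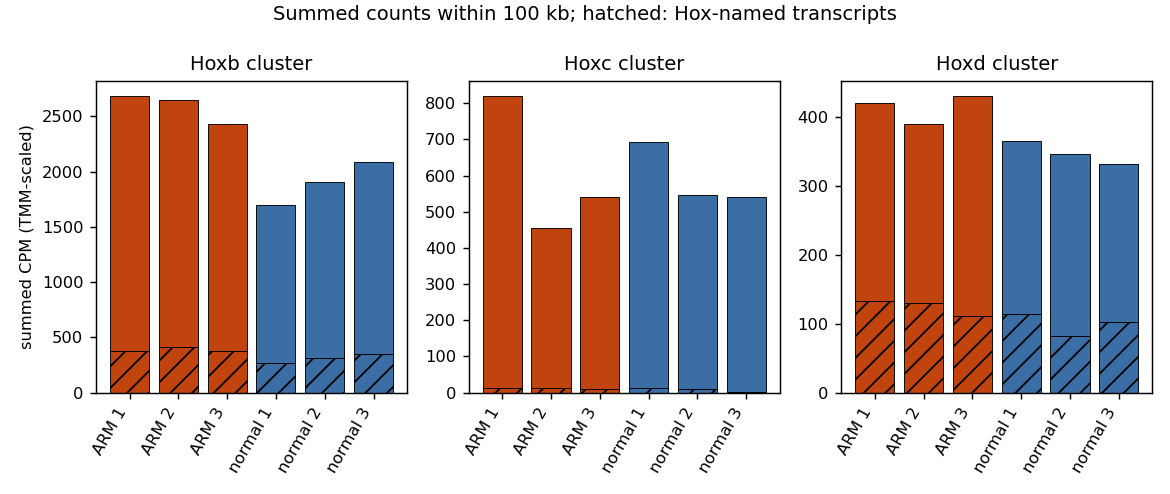
Summed TMM-scaled CPM of all transcripts within 100 kb of the Hoxb, Hoxc and Hoxd members in each lncRNA library, ARM left of normal, with the Hox-named part hatched. The Hoxb sums are 2428 to 2685 CPM in ARM and 1699 to 2085 CPM in normal, while the Hoxc sums of the groups overlap.

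Noncoding transcripts at cell type marker genes were read beside these values, each list being covered only in part. The neuronal marker list had rows for 2 of 6 genes, Elavl3 and Nefl, with a summed level of 315 to 381 CPM per kilobase in ARM and 227 to 336 CPM per kilobase in normal. Its main transcript, at Elavl3 (an RNA-binding protein gene of neurons), had 515, 663 and 628 counts in ARM and 438, 408 and 629 in normal (log2 fold change 0.32, SE 0.19, edgeR adjusted p 0.865). The astrocyte and progenitor list had rows for 2 of 4 genes, Slc1a3 and Gfap. It summed to 21.7 to 37.4 CPM per kilobase in ARM and 20.6 to 46.8 CPM per kilobase in normal. All 3 of its tested transcripts had a log2 fold change below 0 (median -0.42, lowest edgeR adjusted p 0.907). Slc1a3 was at -0.03 (SE 0.41) and the most abundant Gfap transcript at -0.60 (SE 0.57). The oligodendrocyte list, with Olig2 of 3 genes, was at 2.42 to 7.18 CPM per kilobase in ARM and 1.73 to 2.90 CPM per kilobase in normal, and none of the 4 motor neuron markers had a row. Of neighbouring tissues, the muscle gene Myog had 4, 4 and 3 counts in ARM and 0, 0 and 1 in normal, the liver gene Alb 0, 1 and 1 in ARM and 4, 0 and 0 in normal, and the blood gene Hbb 8, 7 and 5 in ARM and 5, 31 and 31 in normal. The part of any of these cell types in the Hox values was not tested.

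Hox proteins bind DNA with TALE cofactors of the Pbx and Meis families, and their genes are opened by axial signals such as retinoic acid and kept silent or active by Polycomb and Trithorax complexes. Noncoding transcripts at these loci, and at genes that carry out the Hox code in motor neurons, were read from the same fit. Of 23 tested, 0 passed by edgeR, against 0.12% of all transcripts. Of these 23, 2 had an unadjusted p under 0.05, which is near the 5.98% of all transcripts. Of 12 cofactor genes 4 had a row, with 8 transcripts, of which 6 were tested, 4 with estimates above 0 and 2 below (median 0.31). Pbx3 had 153, 264 and 289 counts in ARM and 121, 120 and 183 in normal (log2 fold change 0.75, SE 0.25, edgeR adjusted p 0.832), and Meis2 was at 0.06 (SE 0.22) for the transcript with the highest CPM (NONRATT019579.2) and at -0.16 (SE 0.19) for the one with the highest CPM per kilobase (NONRATT019582.2). Of 20 listed names of axial inducer genes, synonyms included, Rxra, a retinoid receptor gene, had a row, at 0.02 (SE 0.29).

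For Polycomb and Trithorax 9 of 23 genes had a row and 12 of 14 transcripts were tested, 7 with estimates above 0 and 5 below, with a median of 0.10. Bmi1, a subunit of Polycomb repressive complex 1, differed widely between libraries of both groups, with 213, 1358 and 184 counts in ARM and 145, 291 and 1527 in normal. Mtf2, which recruits Polycomb repressive complex 2, was at -0.11 (SE 0.15) for its most abundant transcript. Its other transcript, NONRATT009695.2, was at 0.36 (SE 0.16, edgeR unadjusted p 0.0616, adjusted p 0.837). The smallest unadjusted p of this list, at a transcript named after its values were seen, was that of Phc1 NONRATT021814.2. It was at 0.37 (SE 0.15, edgeR unadjusted p 0.0406, adjusted p 0.832). The other Phc1 transcripts were at 0.06 (SE 0.28) and -0.02 (SE 0.32). Of 12 listed names, synonyms included, of genes that carry out the Hox code in motor neurons, 4 had a row. Of their 5 transcripts 4 were tested, 2 with estimates on each side of 0 (median -0.02). The names Hotair, Hottip and Hotairm1, known Hox-cluster lncRNAs, are not analysed here. Foxp1, the Hox cofactor of limb motor neurons, had 2, 59 and 47 counts in ARM and 58, 3 and 44 in normal, and Etv4, a motor pool gene, was at 0.08 (SE 0.12).

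The transcripts whose levels across libraries were most like those of Hoxb8 and Hoxd9 were looked up over 11015 transcripts with a mean of at least 5 CPM. Over the 6 libraries, the Pearson correlation of log2(CPM + 1) with Hoxb8 was highest for transcripts at Rapgef3 (0.98), zeeglar (0.98) and Dact1 (0.97), and with Hoxd9 for Coro2a (0.99), foly (0.99) and supor (0.99). None of them lies in a Hox cluster. The 6 points share libraries and scaling, and 22 transcripts were above 0.95 for Hoxb8 and 32 for Hoxd9.

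The Hox clusters also encode miRNAs, which repress Hox messenger RNAs among other targets; miR-196 cleaves the Hoxb8 messenger RNA in the mouse. Mature forms of these genes numbered 11 in the deposited data, and RefSeq (build GRCr8) gave a sequence for 10. By RefSeq gene order, miR-10a lies between Hoxb5 and Hoxb4, miR-10b inside the listed Hoxd4 gene, miR-196a between Hoxc10 and Hoxc9, miR-196b between Hoxa9 and Hoxa10, miR-196c between Hoxb13 and Hoxb9, and miR-615 inside the listed Hoxc6 and Hoxc5 genes. The 5p arms are shown, with miR-615, which is listed with no arm, because they give the seeds. The seed, bases 2 to 8, is in capitals.
miR-10a-5p: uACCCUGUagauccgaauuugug
miR-10b-5p: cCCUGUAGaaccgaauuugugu
miR-196a-5p: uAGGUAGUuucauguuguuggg
miR-196b-5p: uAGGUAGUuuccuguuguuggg
miR-196c-5p: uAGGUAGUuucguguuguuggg
miR-615: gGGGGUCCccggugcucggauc
The 3 miR-196 forms share 1 seed. The seeds of miR-10a-5p and miR-10b-5p as listed differ because miR-10b-5p is listed from a later base of a shared stretch. Both seeds are overlapping parts of that stretch, so the listed difference is one of start position.

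All 11 forms passed the filter of the miRNA fit and 0 were called, as were 0 of all 467 miRNAs tested (0%) by edgeR. At an unadjusted p under 0.05 there were 4 of the 11 and 29 of all 467 (6.21%), and DESeq2 called 6 miRNAs and limma-voom 0, none of them among the 11. The estimates of 10 of the 11 were above 0, with a median of 0.22, where 51.2% of all miRNAs were above 0 with a median of 0.01. The arms of a hairpin come from 1 precursor and are not separate observations.

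By far the most abundant was miR-10a-5p, with 102080, 92718 and 99215 CPM in the ARM libraries, against 79135, 93201 and 80610 CPM in the normal libraries. The second normal library lay within the ARM range, and the log2 fold change was 0.22 (SE 0.09, edgeR adjusted p 0.751). For miR-10b-5p the values were 21795, 21005 and 22302 CPM in ARM and 18122, 20115 and 18706 CPM in normal (0.19, SE 0.08, edgeR adjusted p 0.751). Its groups did not overlap.

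Of the group with the shared seed, miR-196a-5p had 1330, 1227 and 1276 CPM in ARM and 1152, 991 and 968 CPM in normal (0.30, SE 0.10, edgeR unadjusted p 0.0159, adjusted p 0.751), and its groups did not overlap. For miR-196b-5p, from the Hoxa cluster, the values were 264, 210 and 250 CPM in ARM and 200, 215 and 185 CPM in normal (0.27, SE 0.12, edgeR adjusted p 0.751), with overlap. For miR-196c-5p they were 25.7, 22.6 and 23.5 CPM in ARM and 26.7, 21.7 and 20.9 CPM in normal (0.05, SE 0.15, edgeR adjusted p 0.932).

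From the Hoxc cluster, miR-615 had 45.4, 39.1 and 44.1 CPM in ARM, against 25.7, 38.5 and 38.7 CPM in normal (0.32, SE 0.17, edgeR adjusted p 0.751). Its groups were apart by less than 1 CPM, and the estimate was 0.15 without normal replicate 4, the library at 25.7 CPM. In all, 3 of the 11 forms had every ARM library above every normal library, as had 6.21% of all miRNAs tested, with 5.35% the reverse. The remaining arms were at 0.13 (miR-10a-3p), 0.16 (miR-10b-3p), 0.39 (miR-196a-3p), 0.36 (miR-196c-3p) and -0.13 (miR-196b-3p), with SE of 0.11 to 0.25. That of miR-196a-3p was 0.11 without ARM replicate 4.

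**Figure D4:**
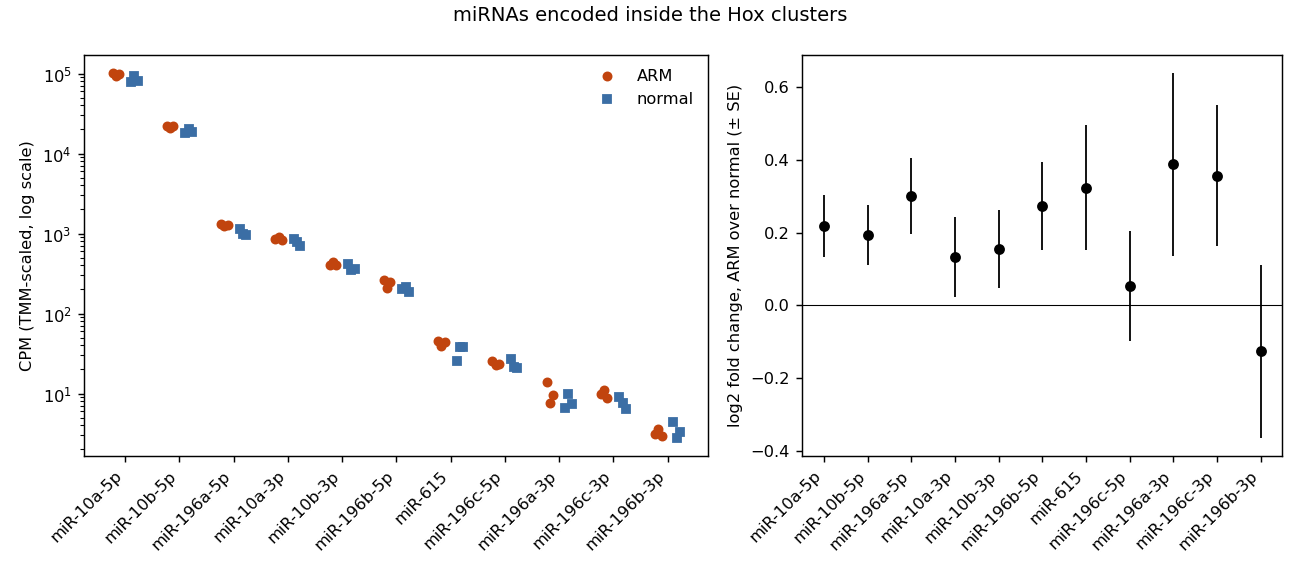
Left, TMM-scaled CPM (log scale) of the 11 mature miRNAs from the Hox clusters in each miRNA library, with ARM circles left of normal squares. Right, their log2 fold change (ARM over normal, bars ± SE); 10 of 11 lie above 0, between 0.05 and 0.39, and miR-196b-3p lies at -0.13.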

How the data were processed

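The deposited lncRNA table gives counts per transcript and the deposited miRNA table counts per mature miRNA, per the file headers, with transcript length as the other column used; 12 further columns of per-sample values (the authors' FPKM and TPM) were not used, since the counts serve for every test and level given. CASAVA 1.8, TopHat2 2.0.9, Cufflinks 2.1.1, Cuffdiff and the build mm10 appear in the submitters' processing notes with no role, although the identifiers are of rat. Build of the coordinates, counting tool and strand: not given in the sources used here. Tests used edgeR 4.0.16 (R 4.3.3): TMM, expression filter, quasi-likelihood F test on phenotype, Benjamini-Hochberg over each table, threshold 0.05; SE is the log2 fold change over the square root of F. These steps were tested on simulated counts, with changes larger than the edgeR estimates from all libraries for the Hox-named transcripts tested. Alternatives used DESeq2 1.42.0, limma 3.58.1, other scalings, no filter and leaving out libraries. Named beside the Hox transcripts were the surrounding transcripts past the threshold or else the 3 with the highest mean CPM, per list up to 4 past the threshold or else the 2 with the highest mean CPM, and the 3 most alike to Hoxb8 and Hoxd9. Members and lists were chosen with earlier results of these data known. Detection limits cover counting error only.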

Additional observations from a re-analysis of the deposited data

How the results depend on the processing

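For the 4 Hox-named transcripts tested, 11 alternatives fitted the transcript itself. All kept the log2 fold change above 0 and the adjusted p above 0.05 (lowest 0.512 by edgeR, Hoxb8 without normal replicate 3). Fits of 4 sums were also above 0 with an adjusted p above 0.05, but they are not further tests of each transcript. The sum of overlapping transcripts held only the transcript itself for Hoxb8 and Hoxc4. Hoxb8 and Hoxb3 shared the cluster sums, and 1 sum left the Hox-named transcripts out. Leaving out 1 library gave 0.15 to 0.41 for Hoxb8, 0.27 to 0.51 for Hoxb3, 0.19 to 0.41 for Hoxd9 and 0.10 to 1.07 for Hoxc4; limma-voom gave Hoxc4 1.58. Around the Hoxb members, 17 of 18 transcripts were above 0 with no filter and by DESeq2, and the median ranged over 0.36 to 0.49 under the other 9 settings. Transcripts called over the whole table were 16 by edgeR, 76 by DESeq2, 9 with no filter and 19 to 29 without 1 library (29 without ARM replicate 1). For miRNAs the count was 0 by edgeR, 6 by DESeq2 and 0 to 9 without 1 library (9 without ARM replicate 6; the labels number miRNA libraries 4 to 6). Same-numbered miRNA libraries did not deviate together (correlations -0.0969, -0.150 and 0.0335). The labels do not say whether the numbers pair libraries, and correlations over so few libraries cannot decide it. A fit with a replicate block called 5 miRNAs. Estimates turned sign when 1 library was left out for miR-196b-3p (-0.27 to 0.0678) and miR-196c-5p (-0.0199 to 0.17). Some other forms had an end of this range that differed from the estimate with all libraries by a factor above 1.5. These were miR-10a-3p (0.0557 to 0.20), miR-10b-3p (0.0986 to 0.23), miR-196a-3p (0.11 to 0.57), miR-196c-3p (0.23 to 0.49) and miR-615 (0.15 to 0.42). Both ends stayed within that factor for miR-10a-5p (0.17 to 0.28), miR-10b-5p (0.16 to 0.23), miR-196a-5p (0.25 to 0.38) and miR-196b-5p (0.20 to 0.37). No paired analysis was possible for the lncRNA libraries because the normal columns could be matched to the group only. Summing overlapping transcripts by strand was not run because the table gives no strand; summed whatever the strand, the 8 transcripts with Hoxb3 had a log2 fold change of 0.46 (edgeR adjusted p 0.791).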
